A study of Mus musculus with 12 samples.

Results

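The genes of the hypoxia-inducible factor (HIF) and of its oxygen sensors were followed in whole blood RNA of mice in chronic hypoxia, in normoxic recovery and in normoxia. They are the 3 α-subunits Hif1a, Epas1 and Hif3a, the β-subunit Arnt, the prolyl hydroxylases Egln1, Egln2 and Egln3, the ubiquitin ligase subunit Vhl, the asparaginyl hydroxylase Hif1an and the coactivator-binding regulator Cited2. All probe sets that the platform annotation assigns to these 10 genes were taken, whatever their values, which gave 29 of the 45101 probe sets of the array and 10 of the 18194 genes that at least 1 probe set names alone. No member probe set names a second gene. Each gene has 1 lead probe set, the one with the highest mean log2 signal over all arrays, and the text gives the gene's values from it unless another is named.

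All animals were wild type C57Bl/10 mice aged 3 months, with 1 mouse per Affymetrix Mouse 430 2.0 array and 4 arrays per group. The CH mice spent 14 days in hypoxia, with the inspired oxygen fraction changed by day and at 8% at harvest. The REC mice had the same 14 days of hypoxia followed by 14 days of recovery at 21% oxygen, and the NX mice stayed at 21%. A label field of the CH samples reads normoxic, against their titles and treatment, and was not followed. Blood was taken whole from the inferior vena cava, so the RNA is that of all blood cells together, and it was amplified before labelling.

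HIF is a dimer of an α-subunit and Arnt. When oxygen is present, the Egln enzymes hydroxylate prolines of the α-subunit, Vhl binds the hydroxylated protein and brings the ligase that marks it for the proteasome, and Hif1an hydroxylates an asparagine that blocks the binding of the coactivators Ep300 and Crebbp. This control acts on the protein, and the arrays measured only mRNA, so the values below say nothing of how much HIF protein was present. Egln1, Egln3 and Cited2 are themselves known as targets of HIF in many cell types, and Hif3a has splice forms that lack the activation domain and restrain the other α-subunits.

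The promoters are shown for Hif3a, the lead probe set that was higher in CH than in NX, and for Egln1 and Vhl, both lower in CH, to set genes of opposite direction side by side for the core of the hypoxia response element, the DNA motif that HIF binds. The motif searched was ACGTG or GCGTG on either strand (read as CACGT or CACGC where it lies on the reverse strand, and CACGTG counts on both), and its copies stand in capitals. Each window runs 5′ to 3′ from 250 bases before to 50 bases after the start of the gene, from RefSeq on GRCm38.p6. The Hif3a window is chr7:17062378-17062677 on the minus strand and holds 2 matches, which begin 230 and 186 bases before the start. The Egln1 window is chr8:124949205-124949504 on the minus strand and holds 2, which begin 126 and 68 bases before the start. The Vhl window is chr6:113623744-113624043 on the plus strand and holds 0.
Hif3a: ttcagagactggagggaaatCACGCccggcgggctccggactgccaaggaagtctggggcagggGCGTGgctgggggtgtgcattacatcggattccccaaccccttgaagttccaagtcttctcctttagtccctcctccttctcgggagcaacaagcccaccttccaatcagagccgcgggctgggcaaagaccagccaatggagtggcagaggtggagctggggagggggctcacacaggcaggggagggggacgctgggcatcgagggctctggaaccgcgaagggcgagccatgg
Egln1: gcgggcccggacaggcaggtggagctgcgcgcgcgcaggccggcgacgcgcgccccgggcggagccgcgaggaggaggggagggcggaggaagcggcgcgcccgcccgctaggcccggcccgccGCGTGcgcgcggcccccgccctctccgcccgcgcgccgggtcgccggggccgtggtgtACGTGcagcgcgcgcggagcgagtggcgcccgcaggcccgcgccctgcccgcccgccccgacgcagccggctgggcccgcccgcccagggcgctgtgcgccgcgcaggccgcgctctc
Vhl: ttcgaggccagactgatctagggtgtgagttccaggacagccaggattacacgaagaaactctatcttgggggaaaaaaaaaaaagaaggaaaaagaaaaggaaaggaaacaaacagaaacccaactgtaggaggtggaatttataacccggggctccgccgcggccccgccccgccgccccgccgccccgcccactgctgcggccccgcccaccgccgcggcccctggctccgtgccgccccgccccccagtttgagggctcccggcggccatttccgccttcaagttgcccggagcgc
A window was found for 9 of the 10 genes, all but Epas1, and 7 of the 9 hold a match in at least 1 of their windows (Hif1a, Hif3a, Arnt, Egln1, Egln2, Egln3 and Cited2). The motif is common, and 43.8% of the 32851 windows of the same length hold it. That share counts windows, while the 7 of 9 counts genes, of which Egln2 has 2 windows. Genes with a match were found both among those higher and among those lower in CH, and Vhl and Hif1an, with no match, were lower in CH like Egln1 and Cited2.

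log2(signal + 16) was fitted with limma, and a probe set was called where its Benjamini-Hochberg adjusted p over all 45101 probe sets was under 0.05 and the change at least 2-fold. A log2 change is the mean of the first group named minus that of the second, and the added 16 makes it smaller than the true change for dim probe sets. In CH against NX, 1 of the 29 member probe sets was called higher, the lead probe set of Hif3a, against 8.04% of all probe sets. In the same comparison 6 were called lower (20.7% of the members, against 13.9% of all), and they belong to Hif1a, Egln1, Vhl, Hif1an and Cited2. In REC against NX no member was called higher (1.62% of all were) and none lower (2.74% of all were). In REC against CH 8 were called higher (27.6%, against 15.2% of all), from Hif1a, Arnt, Egln1, Egln2, Vhl, Hif1an and Cited2, and 4 lower (13.8%, against 12.6% of all), from Hif1a, Hif3a and Egln3. Fewer cells of a type and less RNA per cell cannot be told apart in whole blood.

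Some of these counts rest on single arrays or on the scaling. The 1 called higher in CH against NX became 2 without NX replicate 1 and without CH replicate 1, 2 or 3. The 4 called lower in REC against CH became 2 without REC replicate 1 and 1 without REC replicate 4, and 1 with quantile normalization or median centring. Scaling each array to its 18 hybridization control probe sets moved the median change of all probe sets by far more, to -1.50 in CH against NX, against 0.11 with the deposited scaling. The member split was then 0 higher and 25 lower in CH against NX and 28 higher and 1 lower in REC against CH, so every direction given here is relative to the deposited scaling of the arrays. Between REC and NX hybridization control scaling called 3 members higher, where 7207 of all probe sets were called higher and their median was 0.71. In REC against CH median centring called 10 members higher and 1 lower, where 9350 of all were higher and 3355 lower.

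**Figure D1:**
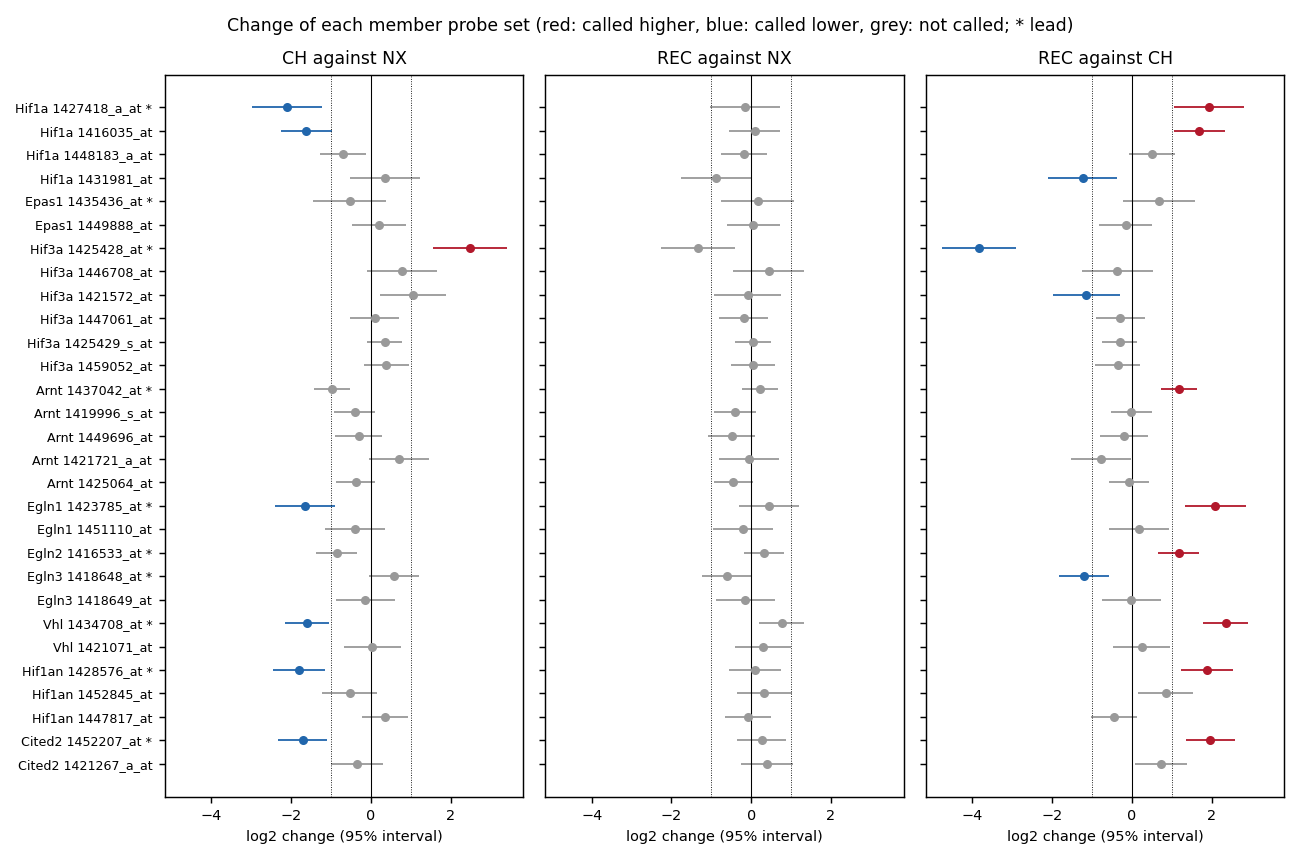
Log2 change of each of the 29 member probe sets in CH against NX, REC against NX and REC against CH (points, with 95% intervals from limma; dotted lines mark 2-fold; stars mark the lead probe sets). At the deposited scaling, Hif3a is the single call on the higher side of the left panel with 2.49, the middle panel holds no call, and the right panel holds 8 calls above 0 and 4 below.

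Hif1a, the α-subunit present in most cells, was lower in CH blood. Its lead probe set (1427418_a_at) read 339.5, 125, 513 and 86.1 in CH replicates 1 to 4, against 847, 823, 903 and 869 in REC and 927, 924, 1060.4 and 945 in NX. All 4 CH arrays lay below every REC and NX array, and the CH arrays themselves were 5.96-fold apart, while the REC arrays were 1.1-fold and the NX arrays 1.15-fold apart. In CH against NX the log2 change was -2.10 (SE 0.41, limma adjusted p = 0.00145), a 4.29-fold lower level on the log2(signal + 16) scale. In REC against CH it was 1.94 (SE 0.41, limma adjusted p = 0.00187). In REC against NX the change was -0.16, with a 95% interval of -1.03 to 0.71 (limma adjusted p = 0.902), or 0.65 with hybridization control scaling, and at the deposited scaling all 4 REC arrays lay below the 4 NX arrays. The mean over the gene's 4 probe sets gave 0.73 in REC against CH, under 2-fold.

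The 4 probe sets of Hif1a differed in direction. A second, 1416035_at, read 92.7, 48.5, 173 and 62.0 in CH, against 358, 307, 279 and 305 in REC and 243, 315, 363 and 263 in NX. It repeated the gap, with a log2 change of -1.61 in CH against NX (SE 0.30, limma adjusted p = 0.00119) and 1.70 in REC against CH (SE 0.30, limma adjusted p = 0.000563), and its signals followed the lead across the 12 arrays (r = 0.96). 1448183_a_at ran between 39.0 and 121 in CH, 95 and 120.0 in REC and 97.7 and 131 in NX, and its change of -0.70 in CH against NX did not pass (limma adjusted p = 0.0674). The fourth, 1431981_at, lay under the median of its array on 9 of 12 arrays. It read 105, 77.0, 41.9 and 19.7 in CH, against 7.71, 28.7, 17.0 and 5.81 in REC and 92.0, 26.6, 23.8 and 31.6 in NX. It was called in the opposite direction in REC against CH, with a log2 change of -1.23 (SE 0.41, limma adjusted p = 0.0298) that turned to 1.19 with hybridization control scaling. REC replicate 2 lay above CH replicate 4, and the call was lost in 10 of 22 alternatives, among them those without CH replicate 1 or 2 and without REC replicate 1, 3 or 4 (limma adjusted p from 0.0509 to 0.0904). Whether the probe sets read different transcripts was not tested.

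Epas1 encodes HIF-2α, known for its part in the control of erythropoietin. Its lead probe set (1435436_at) read 37.9, 4.36, 78.9 and 55.6 in CH, against 50.6, 90.9, 42.7 and 105 in REC and 77.9, 39.8, 45.0 and 86.3 in NX. The 3 groups overlapped throughout, and no comparison was called. The log2 change was -0.53 in CH against NX (95% interval -1.44 to 0.37, limma adjusted p = 0.384), 0.16 in REC against NX (-0.75 to 1.06, limma adjusted p = 0.909) and 0.69 in REC against CH (-0.21 to 1.6, limma adjusted p = 0.215). A fall of 2-fold lies within the first of these intervals and a rise of 2-fold within the others. The second probe set, 1449888_at, lay under the median of its array on all 12 arrays.

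Hif3a was the one member called higher in hypoxic blood. Its lead probe set (1425428_at) read 206, 343, 289.6 and 587 in CH, against 24.4, 3.36, 5.55 and 5.54 in REC and 7.76, 80.8, 68.6 and 59.3 in NX. Every CH array lay above every other array, NX replicate 1 lay among the REC arrays, and the signal was under the array median on 5 arrays, the lowest being in REC. The log2 change was 2.49 in CH against NX (SE 0.43, limma adjusted p = 0.000696), a 5.63-fold higher level on that scale, and -3.83 in REC against CH (SE 0.43, limma adjusted p = 1.2e-05), a 14.2-fold lower one. In REC against NX the change of -1.33 did not pass (95% interval -2.26 to -0.41, limma adjusted p = 0.0994). It passed without NX replicate 1, with -1.79 (limma adjusted p = 0.017). With hybridization control scaling the change in CH against NX was 0.88, under 2-fold, beside the median of -1.50 over all probe sets.

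Of the other 5 Hif3a probe sets, all dim, 1 was called once. 1421572_at read 8.27, 9.53, 69.9 and 63.3 in CH, against 4.66, 0.68, 11.9 and 2.43 in REC and 6.26, 3.50, 9.75 and 4.03 in NX. The gap was made by CH replicates 3 and 4, and its log2 change of -1.14 in REC against CH (SE 0.39, limma adjusted p = 0.0344), which turned to 1.28 with hybridization control scaling, lost the call in 12 of 22 alternatives, among them those without CH replicate 3 or 4 and without REC replicate 1, 2 or 4 (limma adjusted p from 0.0669 to 0.0935). The remaining 4 had log2 changes of 0.10 (1447061_at), 0.35 (1425429_s_at), 0.39 (1459052_at) and 0.79 (1446708_at) in CH against NX, none called, and at least 6 of the 12 arrays read under 16 for each. The call on Hif3a in CH against NX thus rests on 1 probe set, and the mean over all 6 gave 0.86, under 2-fold.

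**Figure D2:**
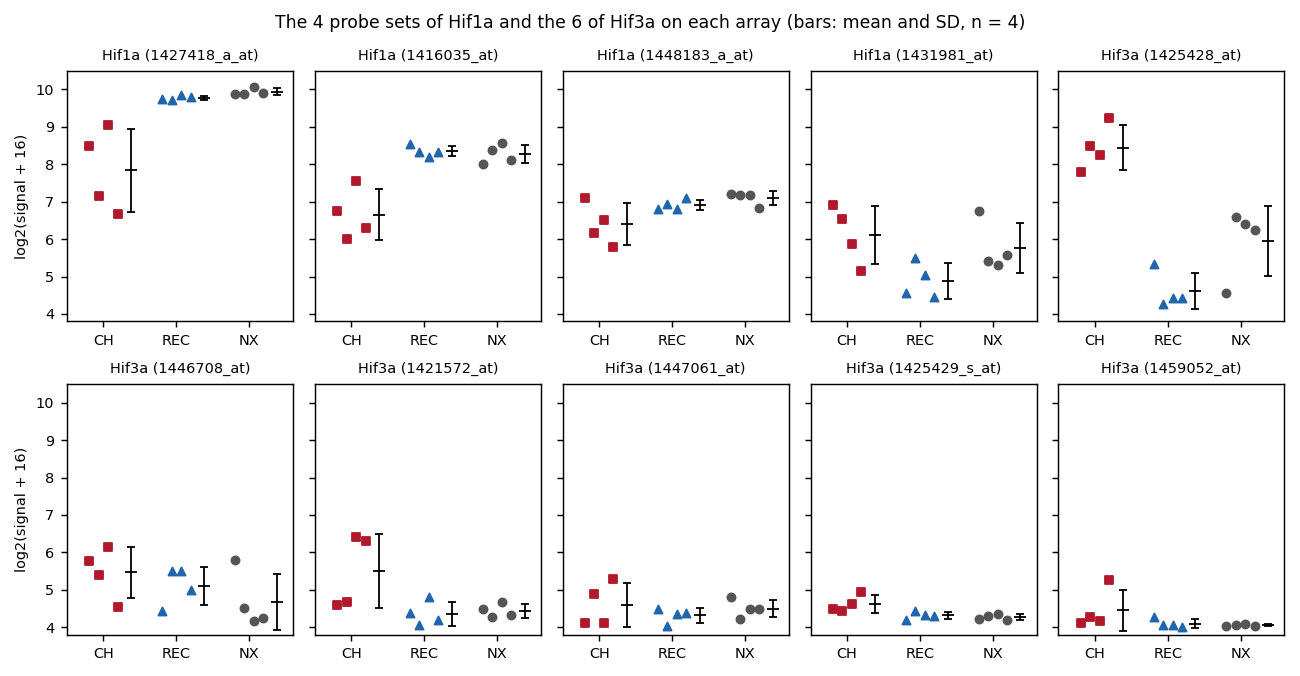
log2(signal + 16) of the 4 probe sets of Hif1a and the 6 of Hif3a on each array, with the mean and SD of the 4 arrays of CH, REC and NX. The first Hif3a panel shows CH above all other arrays, while 5 Hif3a panels sit near the bottom of the scale, where the added 16 sets the level.

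Arnt, the partner that the α-subunits need to bind DNA, was higher in REC than in CH by its lead probe set alone. The lead probe set (1437042_at) read 106, 100.4, 122 and 130.1 in CH, against 275, 284, 309 and 256 in REC and 219.6, 212, 305 and 228 in NX. The CH arrays lay below all others and close together, with a mean of 115 ± 13.8 (SD, n = 4), against 281 ± 22.0 in REC and 241 ± 42.9 in NX. The log2 change of -0.97 in CH against NX passed the test but not the 2-fold limit (SE 0.21, limma adjusted p = 0.00327), and that of 1.19 in REC against CH passed both (SE 0.21, limma adjusted p = 0.000549). The other 4 probe sets of Arnt were not called, with log2 changes of -0.40 to 0.70 in CH against NX. In REC against CH they had -0.76 to -0.01. Among them 1419996_s_at, under the array median on 0 arrays, had -0.01 and did not repeat the rise. The mean over all 5 gave 0.03 in REC against CH. The call in REC against CH was also lost with quantile normalization (0.95) and a pseudocount of 64 (0.95).

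Of the prolyl hydroxylases, Egln1 (PHD2), the main oxygen sensor for HIF in most cells, was lower in CH. Its lead probe set (1423785_at) read 44.5, 106, 215 and 119 in CH, against 533, 409, 451 and 699 in REC and 278, 474, 435 and 326 in NX. The highest CH array lay below the lowest REC and NX arrays, and the REC and NX arrays overlapped. The log2 change was -1.65 in CH against NX (SE 0.35, limma adjusted p = 0.0029) and 2.10 in REC against CH (SE 0.35, limma adjusted p = 0.000346). REC differed from NX by 0.45 (95% interval -0.30 to 1.21, limma adjusted p = 0.575). The second probe set, 1451110_at, ran from 11.4 to 77.8 over the 12 arrays and was not called.

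Egln2 (PHD1) has 1 probe set, 1416533_at, with 251, 184, 389.9 and 298 in CH, against 633, 625, 656 and 619 in REC and 466, 568, 537 and 453 in NX. The 3 groups did not overlap, CH being lowest and REC highest. The log2 change of -0.86 in CH against NX passed the test but was under 2-fold (SE 0.24, limma adjusted p = 0.0149), and that of 1.18 in REC against CH was called (SE 0.24, limma adjusted p = 0.00154) and fell to 0.76 with quantile normalization. The REC arrays stood 0.32 above the NX arrays (95% interval -0.19 to 0.83, limma adjusted p = 0.554).

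Egln3 (PHD3), which HIF induces in many cells, was lower in REC than in CH, opposite to Egln1. The lead probe set (1418648_at) read 97.3, 53.8, 109 and 64.8 in CH, against 34.9, 28.4, 31.0 and 11.4 in REC and 42.8, 36.3, 39.5 and 78.8 in NX. CH lay above REC on every array, while NX replicate 4 lay above 2 of the CH arrays. The signal was under the array median on 5 arrays, REC replicates 2, 3 and 4 among them. Only REC against CH was called, with a log2 change of -1.19 (SE 0.29, limma adjusted p = 0.0054) that turned to 1.23 with hybridization control scaling. The call was lost in 6 of 24 alternatives, among them that without REC replicate 4, where the change was -0.996. In CH against NX the change was 0.58 (95% interval -0.05 to 1.20, limma adjusted p = 0.163) and in REC against NX -0.62 (-1.24 to 0.00, limma adjusted p = 0.286), and hybridization control scaling turned these to -1.04 and 0.19. The other probe set, 1418649_at, was not called and had -0.01 in REC against CH.

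Vhl, the subunit that recognises hydroxylated HIF, had groups that did not overlap. Its lead probe set (1434708_at) read 106, 127, 241 and 93.1 in CH, against 709.9, 766, 766 and 743 in REC and 408, 457, 462 and 414 in NX. CH was lowest, NX lay between and REC was highest. The log2 change was -1.6 in CH against NX (SE 0.26, limma adjusted p = 0.000455), a 3.03-fold lower level, and 2.36 in REC against CH (SE 0.26, limma adjusted p = 9.91e-06), a 5.12-fold higher one. REC stood above NX by 0.76 (95% interval 0.20 to 1.32), a 1.69-fold higher level that did not pass (limma adjusted p = 0.122). The second probe set, 1421071_at, ran from 3.76 to 55.9 over the 12 arrays and was not called, and the mean of both gave -0.78 in CH against NX, under 2-fold.

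Hif1an (FIH), the asparaginyl hydroxylase, read 33.7, 11.7, 75.0 and 29.6 in CH, against 184, 132, 171 and 177 in REC and 149, 150.4, 169 and 147 in NX (lead probe set 1428576_at). The CH arrays lay apart, and the REC and NX arrays overlapped. The signal was under the array median on 3 arrays, all in CH. The log2 change was -1.79 in CH against NX (SE 0.30, limma adjusted p = 0.000566), 1.89 in REC against CH (SE 0.30, limma adjusted p = 0.000237) and 0.09 in REC against NX (95% interval -0.55 to 0.74, limma adjusted p = 0.927). Its other probe sets, 1452845_at and 1447817_at, lay under the array median on 10 and 12 of the 12 arrays and were not called, and the mean of the 3 gave -0.65 in CH against NX and 0.77 in REC against CH, both under 2-fold.

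Cited2, which competes with HIF-1α for the coactivators Ep300 and Crebbp, read 218, 113, 293 and 122 in CH, against 627, 639, 839 and 829 in REC and 499, 613, 623 and 693 in NX (lead probe set 1452207_at). Again the CH arrays lay below all others. The log2 change was -1.71 in CH against NX (SE 0.29, limma adjusted p = 0.000564), 1.97 in REC against CH (SE 0.29, limma adjusted p = 0.000111) and 0.26 in REC against NX (95% interval -0.35 to 0.88, limma adjusted p = 0.717). Its second probe set, 1421267_a_at, had -0.34 in CH against NX and 0.74 in REC against CH, neither called.

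**Figure D3:**
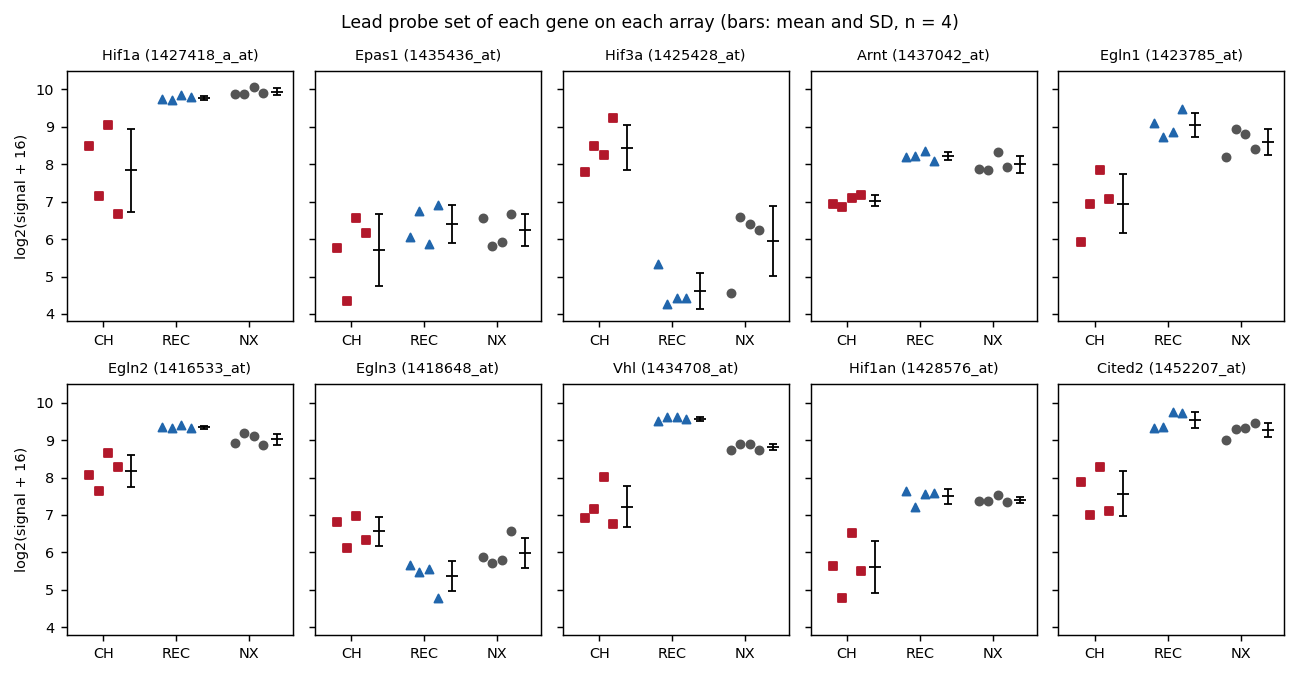
log2(signal + 16) of the lead probe set of each of the 10 genes on each array, with the mean and SD of the 4 arrays of CH, REC and NX. At the deposited scaling CH lies below REC and NX in 7 panels and above both in the Hif3a panel, while in the Epas1 and Egln3 panels it overlaps NX.

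Across the 10 lead probe sets, CH lay wholly below NX in 7 (Hif1a, Arnt, Egln1, Egln2, Vhl, Hif1an and Cited2) and wholly above it in Hif3a. Of all probe sets, 26.1% had these groups apart in either direction, and the share for the leads of all genes was not taken. Called were 5 of the 10 leads lower and 1 higher, against 19.5% and 9.08% of the leads of all genes. In CH against NX the median log2 change of the 10 leads was -1.28, against 0.11 for all probe sets and 0.05 for the lead probe sets of all 18194 genes. In REC against CH it was 1.54, against -0.25 and -0.07. Without the dimmer probe sets, the medians over the remaining 22551 were -0.34 in CH against NX and 0.20 in REC against CH. Over all 29 member probe sets, dim ones included, the medians were -0.34 and -0.01. The groups did not overlap for 12 of the 29 in CH against NX and for 11 in REC against CH, where 26.1% and 32.4% of all probe sets did not. The comparisons share arrays, CH being the group common to these, so they are not independent of each other.

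In REC against NX none of the 29 was called with limma, and none with the same test without moderation. At an unadjusted p under 0.05, 3 passed, and the smallest adjusted p was 0.0994, that of Hif3a. The groups did not overlap for 6 of the 29, against 20.3% of all probe sets. Those above NX were both probe sets of Vhl and that of Egln2, and those below were the leads of Hif1a and Egln3 and the dim Arnt probe set 1425064_at. The lead probe sets had changes of -1.33 (Hif3a) to 0.76 (Vhl), with a median of 0.19.

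Within the CH group the same arrays were high for several members. CH replicate 3 had the highest CH signal for 8 of the 10 leads, those of Hif1a, Epas1, Egln1, Egln2, Egln3, Vhl, Hif1an and Cited2, and CH replicate 4 the highest for Hif3a and Arnt. The share of all probe sets that were highest on these arrays was not taken. CH replicate 3 also had the highest summed signal of the B cell, T cell and monocyte markers of the CH arrays, with 10075 for B cells (1705 to 4370 on the others), 3699 for T cells (954 to 1272) and 11557 for monocytes (3358 to 4538). CH replicate 4 had the highest sum of the erythroid markers, 170516 (107569 to 131384 on the others), and of the platelet markers, 44747. The neutrophil markers had their highest sum on CH replicate 1, 52178, with 36323 on CH replicate 3. Without CH replicate 3, 7 members were called lower and 2 higher in CH against NX. Of all probe sets 7177 were then lower and 4578 higher, against 6282 and 3628 with every array. In REC against CH 8 members were then called higher and 4 lower. Of all probe sets 7529 were higher and 6773 lower there, against 6866 and 5688 with every array.

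The cell type markers also differed between the groups. Of the erythroid list (Alas2, Slc4a1, Klf1 and others) 7 of 8 were measured and all 7 were called higher in CH against NX, with summed signals of 107569 to 170516 in CH, against 5379 to 15955 in REC and 21762 to 33185 in NX. The REC arrays had 4 of the 7 called lower than NX (3 without moderation). Of these 4 calls quantile normalization lost 1, Alas2 (-1.13), and hybridization control scaling lost 2. All 7 were lower in REC against CH. In CH against NX quantile normalization lost the calls on Alas2 (0.03) and Slc4a1 (0.95), and hybridization control scaling those on Alas2 (0.13) and Gata1 (0.88). Hybridization control scaling also lost Alas2 (-0.81) and turned Gata1 to 0.32 in REC against CH. Of the B cell list (Cd79a, Ms4a1 and others) 3 of the 4 measured were called lower in CH against NX, with sums of 1705 to 10075 in CH, against 17140 to 19576 in REC and 13789 to 16724 in NX. Of the T cell list (Cd3e, Cd4 and others) all 5 measured were called lower, with 954 to 3699 in CH, against 7958 to 8344 in REC and 4183 to 5896 in NX. Of the neutrophil and platelet lists none of 5 each was called in CH against NX with limma, with moderation or without, and 0 passed at an unadjusted p under 0.05, and of the monocyte list 1 of 5 was lower (0 without moderation), with sums of 3358 to 11557 in CH, against 7946 to 11461 in REC and 7158 to 11330 in NX. No measured marker was at 0 on any array, but without detection calls this does not show that each was detected. The part of these cells in the values of the HIF genes was not tested.

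The summed T cell markers and the summed B cell markers each had CH lowest, NX between and REC highest without overlap. This is also the order of Vhl and Egln2, and the share of all probe sets in it was not taken. Of the 5 T cell markers, Cd3g alone had its own groups apart in this order. Of the 4 B cell markers, Cd79a and Ms4a1 had. The summed erythroid markers ran in the reverse order, CH, NX and REC from high to low, but Gata1 read 389 to 759 in REC, against 341 to 562 in NX. Hif3a had its groups in that reverse order of means, with 356 ± 164 in CH, against 9.71 ± 9.84 in REC and 54.1 ± 32.1 in NX (SD, n = 4 each). Over the 12 arrays, the genes whose lead probe sets followed Hif3a most closely were Iscu, Hagh and Fam210b (Pearson r = 0.98 each). Those closest to Hif1a were Prkce (r = 0.99), Gmcl1 and Retreg1, to Vhl 1110059G10Rik, Ino80e and Blmh, to Hif1an Tbc1d14, Eri2 and Tmem168, and to Cited2 Lrwd1, Abcg1 and Mtap. For Egln1 they were Reps1, Tom1 and Trmt10c, for Egln2 Eif4h, Zfp622 and Fnta, for Arnt Pxk, Smu1 and Paics, and for Egln3 Zc3hav1l (r = 0.91), Fam43b and Ctsr. The 12 arrays fall into 3 groups, so these r values hold the differences between groups and are a description of the pattern. Among the members, the lead of Hif3a ran opposite to that of Vhl (r = -0.91), and Hif1an and Cited2 ran together (r = 0.97).

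The rest of the pathway was read from 5 lists of 89 genes, of which 80 were measured, each by its lead probe set. Of the lead probe sets of all 18194 genes, 9.08% were called higher and 19.5% lower in CH against NX, 2.5% and 1.79% in REC against NX, and 23.3% and 12.3% in REC against CH, and the lists' shares stand beside these. Among the called genes of these lists, hybridization control scaling turned the sign of 5 of 34 in CH against NX, 0 of 6 in REC against NX and 4 of 38 in REC against CH, and quantile normalization that of 1 of the 38. In CH against NX quantile normalization lost 9 of the 34 calls, median centring 3 and hybridization control scaling 8. In REC against NX these scalings lost 0, 4 and 5 of the 6, and in REC against CH 7, 1 and 5 of the 38. Named genes are marked where they turned or lost the call. In the list of HIF degradation and stability, 5 of 14 were higher (35.7%) and 4 lower (28.6%) in CH against NX. The elongins Elob and Eloc, which join Vhl to its ligase, were higher in CH, while Vhl was lower. Elob averaged 30433 in CH, against 3769.7 in NX, a log2 change of 3.02 (SE 0.27, limma adjusted p = 4.32e-06), and Eloc averaged 8573 in CH, against 1331 in NX, a change of 2.63 (SE 0.27, limma adjusted p = 1.07e-05). Siah1a, a ligase that acts on prolyl hydroxylases and has a near-identical copy, Siah1b, that was not measured alone, had 2.61 and Nedd8, the modifier that activates cullin ligases, 2.10, and Cops5, the catalytic subunit of the COP9 signalosome, 1.12. Hybridization control scaling left Siah1a at 0.99 and Nedd8 at 0.49, neither called, and turned Cops5 to -0.49, and median centring lost Cops5 at 0.97. On the lower side were Wsb1 (-1.90), Usp33 (-1.62), Siah2 (-1.42) and Stub1 (-1.08, but -0.74 and not called with quantile normalization). The list's median was -0.33, against 0.05 for the leads of all genes. The REC arrays had 1 lower than NX, Siah1a (-1.25, limma adjusted p = 0.0396), a call lost without moderation, with median centring (-1.09) and with hybridization control scaling (-0.44). In REC against CH 5 were higher and 4 lower, with Siah1a (-3.85), Elob (-3.22, but -0.80 and not called with hybridization control scaling), Eloc (-2.10, but 0.32 with hybridization control scaling) and Wsb1 (1.66) the largest.

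Of the coactivators and partners, 3 of 15 were higher (20%) and 7 lower (46.7%) in CH against NX. Crebbp and Ep300, the paralogous acetyltransferases that HIF recruits, differed in direction at the deposited scaling. Crebbp averaged 6711 in CH, against 2401 in NX, a log2 change of 1.44 (SE 0.24, limma adjusted p = 0.000567) that turned to -0.17 with hybridization control scaling and was 0.48, not called, with quantile normalization. Ep300 averaged 363 in CH, against 1007 in NX, a change of -1.47 (SE 0.24, limma adjusted p = 0.000502). The largest changes were on the lower side, in the deacetylase Sirt1 (-2.14), the coactivator Ncoa1 (-2.09) and Ruvbl2 (-1.87). Lower in REC than in NX were 3, Crebbp (-1.24), Ep300 (-1.08) and Ncoa2 (-1.08). None of these 3 calls held with median centring (-1.09, -0.92 and -0.92) or hybridization control scaling (-0.43, -0.27 and -0.27). In REC against CH 6 were higher and 2 lower, with Crebbp (-2.68, but -0.26 and not called with hybridization control scaling), Ruvbl2 (2.53), Ncoa2 (-2.20, but 0.22 with hybridization control scaling) and Ncoa1 (1.91) the largest.

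Of the regulators of HIF mRNA and translation, 1 of 11 was higher in CH against NX (9.09%), the translation repressor Eif4ebp1 (1.28, but -0.33 with hybridization control scaling), and 3 were lower (27.3%), the iron regulatory protein Ireb2 (-2.29), the RNA-binding Ptbp1 (-1.21) and the kinase Mtor (-1.01). Quantile normalization lost the calls on Ptbp1 (-0.92) and Mtor (-0.85). None was called with limma in REC against NX, with moderation or without, and 2 passed at an unadjusted p under 0.05. In REC against CH 3 were higher (Aco1 1.69, Ptbp1 1.59 and Ireb2 1.39). Of the other oxygen-dependent oxygenases, 0 of 14 were higher and 4 lower (28.6%) in CH against NX, the histone demethylases Kdm6b (-2.05) and Kdm4b (-1.14), the cysteamine dioxygenase Ado (-1.40) and Jmjd6 (-1.37). Lower in REC than in NX was Kdm5a (-1.18, but -0.37 and not called with hybridization control scaling), and in REC against CH 4 were higher (Ado 1.58, Kdm4b 1.51, Fto 1.32 and Jmjd6 1.18) and 1 lower (Tet3 -1.37, but 1.05 with hybridization control scaling). Jmjd6 was not called in either comparison with quantile normalization (-1.23 and 1.03).

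Of the classical HIF targets, 2 of 26 were higher (7.69%) and 5 lower (19.2%) in CH against NX, close to the 9.08% and 19.5% of the leads of all genes, with a median of -0.68. The higher ones were the transferrin receptor Tfrc, which is also in the erythroid list (3.85, limma adjusted p = 1.43e-06), and Mxi1 (2.27, limma adjusted p = 3.99e-05). Mxi1 was not called with quantile normalization (0.61) or hybridization control scaling (0.66). The lower ones were Ddit4 (-2.67), an inhibitor of Mtor signalling, Bhlhe40 (-1.94), the glucose transporter Slc2a1 (-1.35), Pfkfb3 (-1.28) and Kdm3a (-1.09), of which Pfkfb3 (-1.07) and Kdm3a (-0.76) lost the call with quantile normalization. Higher in REC than in NX was Higd1a (1.34). In REC against CH 11 were higher (42.3%) and 2 lower (7.69%), with Tfrc (-4.38), Mxi1 (-2.75, but -0.33 and not called with hybridization control scaling), Ddit4 (2.64) and Bhlhe40 (2.58) the largest.

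**Figure D4:**
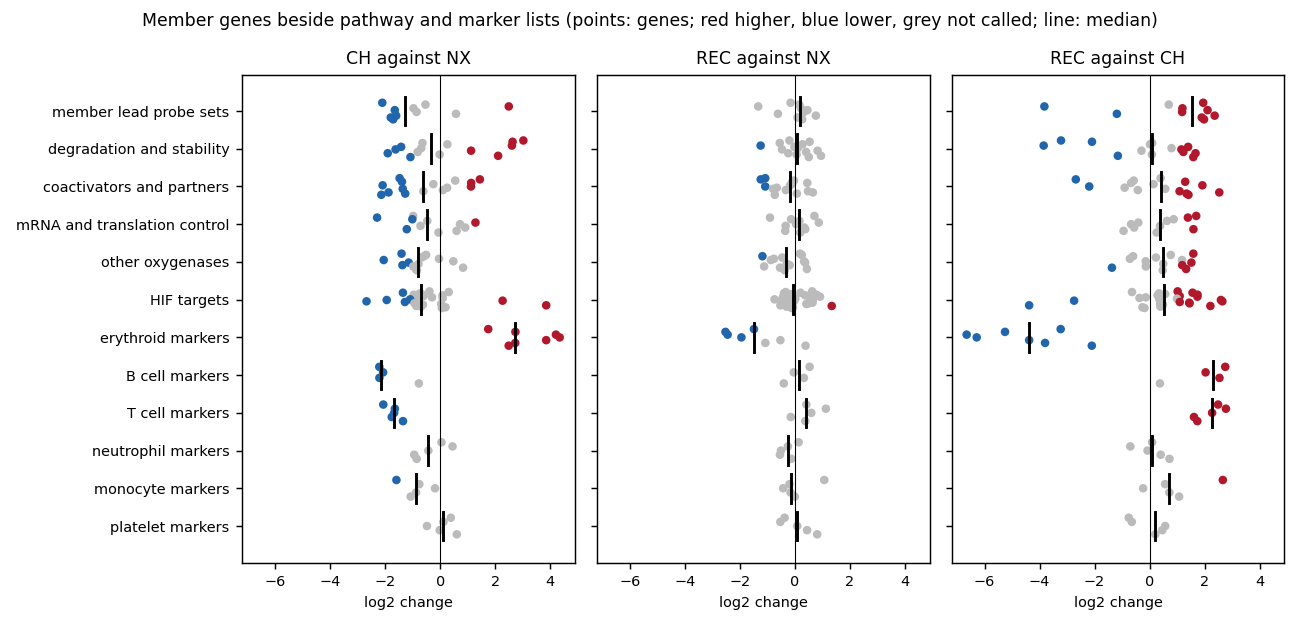
Log2 change of the lead probe set of each gene (points; vertical line, median of the list) for the 10 members, the 5 pathway lists and 6 of the marker lists in CH against NX, REC against NX and REC against CH. At the deposited scaling the members' median in the left panel of -1.28 lies below 0. So do those of the B cell (-2.14), T cell (-1.67), monocyte (-0.87) and neutrophil lists (-0.43) and of the 5 pathway lists (-0.82 to -0.33). Hif3a lies on the side of the erythroid list (2.73), and the platelet list has 0.12.

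The arrays share a trimmed mean of 150.0 and have medians of 32.9 to 59.9, and no pair of arrays was closer than r = 0.977. The 100 brightest probe sets held 19.9 to 22.1% of the summed signal in CH, against 8.46 to 10.3% in REC and 10.6 to 13.8% in NX. The 18 hybridization controls were 1.61 higher in CH than in NX on the log2 scale and 2.42 lower in REC than in CH. The endothelial markers checked as a sign of vessel tissue summed to 82.7 to 203 in CH, 81.6 to 116 in REC and 97.8 to 190.1 in NX over 5 genes. None of them was called with limma in any comparison, with moderation or without, and at an unadjusted p under 0.05 there passed 1 in CH against NX, 0 in REC against NX and 1 in REC against CH. Of the 5, 4 lay under the array median on all CH arrays, 3 on all REC arrays and 3 on all NX arrays. At such low signals the lack of calls does not show that the groups were alike.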

How the data were processed

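Whole blood RNA of 12 mice was measured on 12 arrays. The deposited values are intensities, 1 linear signal per probe set and array with equal trimmed means on all arrays. Per the Methods, an Agilent scanner read the arrays and the authors kept raw intensities in GCOS. Which program summarised the deposited signals is not stated in the sources used. For their own analysis the authors used GC-RMA, which gives log2 values that the deposited signals are not. The sources name different amplification kits, and they give 4 mice per group in the text and 5 in a legend, while 4 arrays per group were analysed. The files used hold no detection calls, scan dates or batches, so the number of arrays limits the precision, and no batch could be examined. Groups were taken from the sample titles.

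Probe sets were named from the platform annotation, with symbols updated by gene number for 34754 of the 34958 that name 1 gene; 932 name several and 9211 none. log2(signal + 16) was fitted in limma 3.58.1 (R 4.3.3, eBayes, 9 residual degrees of freedom) over all 12 arrays with a mean per group, for CH against NX, REC against NX and REC against CH. Because different genes' probe sets bind differently, levels were compared within a probe set only. Lists were described by counts and medians, with no set test. The rule for named genes took each member's lead probe set, every other member probe set called in a comparison, the 3 genes most like each called lead by Pearson r, and up to 4 called genes with the largest change per pathway list and comparison. Wsb1, Cops5, Usp33, Siah2, Stub1, Crebbp, Slc2a1, Pfkfb3 and Kdm3a in CH against NX and Jmjd6 in REC against CH lie outside it and were named after their values were seen. The members and lists were chosen with earlier results of these data known, so they are not independent evidence. The fit was tested on simulated data in which each probe set had the same spread in all groups. The real groups differ in spread, as for the lead of Hif1a (SD of log2(signal + 16) 1.11 in CH, 0.06 in REC and 0.09 in NX). That test therefore does not cover unequal spread. Figures were drawn with Python 3.11.15 and matplotlib 3.10.9. The alternatives were quantile normalization, median centring, hybridization control scaling, pseudocounts of 1 and 64, leaving out the dimmer probe sets, a trend and robust prior, no moderation, a fit of just the 8 arrays of a comparison, other thresholds, weights per array, a replicate block, averaging the probe sets of each gene, and leaving out each array.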

Additional observations from a re-analysis of the deposited data

Results flagged for a closer look

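Of 39 groups of 4 arrays, from the 13 probe sets with a value given on each array, 3 had an array whose gap to its nearest neighbour, as a share of the group's range, was above Dixon's 95% critical value. Chance alone gives about 1 in 20 such groups. For Hif3a (1425428_at), REC replicate 1 read 24.4, while the other REC arrays read 3.36 to 5.55, and that array also had the highest summed erythroid markers of the REC arrays, 15955. NX replicate 3 read 1060.4 for Hif1a (1427418_a_at), while the other NX arrays read 924 to 945. For Hif1an (1428576_at) the same NX array read 169, against 147 to 150.4 on the others.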

How the results depend on the processing

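Single changes were followed for each lead probe set in the 3 comparisons and for each called change of another member probe set. Counted once per alternative, 749 kept their direction and their side of the threshold, 18 became called, 35 lost a call and 8 changed sign. The uncalled changes of the other member probe sets are not among these cases, while the counts of calls that follow cover all members. The member probe sets called higher in CH against NX numbered 1, and 2 with a pseudocount of 1, with a trend and robust prior and with the replicate block, 0 with hybridization control scaling, and 1 to 2 without each array in turn. Those called lower in CH against NX numbered 6, and 25 with hybridization control scaling, where 34409 of all 45101 probe sets were called lower. In REC against NX 3 were called higher with hybridization control scaling (7207 of all) and 1 lower with array weights (1911 of all). Without each array in turn 0 to 1 were called lower there. Called higher in REC against CH were 8, and 28 with hybridization control scaling, where 41805 of all probe sets were called higher. Called lower in REC against CH were 4, and 1 with quantile normalization, median centring, hybridization control scaling or a pseudocount of 64, 2 without moderation, without the dimmer probe sets or at an adjusted p under 0.01, and 1 to 4 without each array in turn. Hybridization control scaling turned Egln3 to -1.04 in CH against NX, 0.19 in REC against NX and 1.23 in REC against CH, Hif1a to 0.65 in REC against NX, and in REC against CH the dim probe sets 1431981_at of Hif1a to 1.19 and 1421572_at of Hif3a to 1.28. Epas1 in REC against NX ran from -0.016 without REC replicate 4 to 0.33 without REC replicate 3, and Arnt there had -0.24 as the mean of its probe sets, against 0.22. That scaling moves every change because the controls themselves differed between the groups, and the cause of that difference was not tested, nor was that of the other changes.

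The replicate numbers were not used to pair the arrays in the main fit. Of the correlations between same-numbered arrays' deviations from their group means, 3 of the 4 between CH and NX were over 0.1 (-0.20 to 0.44). Between REC and NX 0 of 4 were, and between REC and CH 0 of 4. Differently numbered arrays were not compared, so these values do not decide whether CH and NX arrays were paired. Besides the higher calls in CH against NX the replicate block moved no count of calls by over 1.5 times. Probe sets with signals near 16 or below have little room to show a fall. This limits Hif3a, Epas1, Egln3, Hif1an and the dim probe sets of the other genes.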
